A study of Mus musculus with 6 samples.

Results

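The retinoblastoma pocket protein genes, the E2F transcription factor genes and the gene of a protein phosphatase 1 (PP1) catalytic subunit were followed in mouse neural stem cells with and without Pml. The members were chosen by gene symbol, and all 10 (Rb1, Rbl1, Rbl2, E2f1, E2f3, E2f4, E2f5, E2f7, E2f8 and Ppp1ca) were found among the 24421 symbols of the count table. Every member passed the filter on low counts that left 11317 genes for testing. There were 3 libraries from Pml knockout (Pml-/-) cells and 3 from WT cells, all from primary embryonic (E13.5) neural stem cells. The cells were grown as neurospheres at 20% oxygen with 20 ng/ml each of epidermal growth factor and fibroblast growth factor 2. They were lysed on day 4 after dissociation. A 3′ tag protocol was used, in which a read marks the end of a polyadenylated transcript, so reads of different genes were not compared as levels. The labels say neither which part of Pml was removed nor whether replicates are separate embryos or cultures, so the p-values measure the spread between these 6 libraries, which may be technical.

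Pocket proteins hold back the cell cycle by binding E2F factors at the promoters of genes needed for DNA replication. Cyclin-dependent kinases phosphorylate the pocket proteins and free the E2Fs, and PP1 removes those phosphates. PML, the protein that builds nuclear bodies, is known from the developing mouse neocortex to bring PP1 and the retinoblastoma protein together in neural progenitors. The E2F family has activators (E2f1, E2f2, E2f3), repressors that act with pocket proteins (E2f4, E2f5) and atypical repressors that need no pocket protein (E2f7, E2f8). The phosphorylation on which this circuit turns is not read by transcript counts.

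E2F genes are themselves known E2F targets, so the promoters of E2F members were searched for E2F letters. By symbol, 6 of the 10 members matched the RefSeq promoter table (GRCm38.p6, 250 bases before the start site to 50 after it), and Rb1, E2f4, E2f5 and Ppp1ca did not. Both strands were searched for TTTCCCGC and TTTGGCGC (E2F), CCAAT (NF-Y) and TTTGAA (the cell cycle homology region used by the pocket protein and MuvB complexes). E2f1 and the second of the E2f3 promoters in the table held no match to any of these words. The E2f1 window (chr2:154569377-154569676, minus strand) lay inside the annotated gene, which starts at 154569892, so the sequence at that start was not searched. The E2F words searched were in 1 of 2 promoters of E2f3, in that of E2f7 and in no other. Another E2F word, TTTCGCGC, was not searched, and the Rbl1 promoter holds it. The 3 promoters below are shown because the first E2f3 promoter and E2f7 held an E2F match and E2f8 held the other motifs. Capitals mark every match on either strand. They lie at chr13:29986014-29986313 on the minus strand (E2f3), chr10:110745189-110745488 on the plus strand (E2f7) and chr7:48881547-48881846 on the minus strand (E2f8).
E2f3: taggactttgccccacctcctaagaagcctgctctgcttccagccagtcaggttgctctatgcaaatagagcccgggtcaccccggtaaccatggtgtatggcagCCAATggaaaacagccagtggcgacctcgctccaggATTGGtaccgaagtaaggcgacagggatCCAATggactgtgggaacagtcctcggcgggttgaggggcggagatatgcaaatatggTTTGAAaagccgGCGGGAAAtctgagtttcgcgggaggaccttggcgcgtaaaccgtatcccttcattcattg
E2f7: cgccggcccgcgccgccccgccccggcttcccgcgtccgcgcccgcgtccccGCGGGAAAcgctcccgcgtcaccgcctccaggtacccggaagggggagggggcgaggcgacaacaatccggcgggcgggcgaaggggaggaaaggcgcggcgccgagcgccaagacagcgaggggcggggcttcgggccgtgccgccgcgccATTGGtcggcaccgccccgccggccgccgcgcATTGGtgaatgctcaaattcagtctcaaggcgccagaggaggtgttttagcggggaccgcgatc
E2f8: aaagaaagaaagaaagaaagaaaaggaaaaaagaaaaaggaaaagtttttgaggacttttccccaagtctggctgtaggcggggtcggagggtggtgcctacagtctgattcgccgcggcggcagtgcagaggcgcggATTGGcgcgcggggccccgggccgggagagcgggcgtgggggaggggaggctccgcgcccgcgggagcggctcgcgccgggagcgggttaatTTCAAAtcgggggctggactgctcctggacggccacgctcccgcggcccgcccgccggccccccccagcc
Counting the first transcribed base as 1 and naming the leftmost base, the TTTCCCGC match stood at position -11 in E2f3 and at position -198 in E2f7, on the minus strand of the printed sequence in both. The printed E2f3 promoter also held 3 CCAAT matches and 1 TTTGAA match, E2f7 held 2 CCAAT matches, and E2f8 held 1 CCAAT and 1 TTTGAA match, with no match overlapping another. Over 32851 mouse promoters of this length, 1.56% held either E2F word, 37.4% held CCAAT and 17.9% held TTTGAA. A match describes the letters and is not a measured binding site.

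The libraries held 4980638 to 5917505 counts in Pml knockout cells and 1775152 to 4413318 in WT cells. Reads of Rn45s, the precursor of ribosomal RNA, made up 14.6% to 17.6% of knockout counts and, in WT replicates 1, 2 and 3, 41.9%, 39.8% and 19.6%. Pml itself had 14, 23 and 5 reads in the knockout libraries and 36, 35 and 44 in the WT libraries; a 3′ tag outside the removed part would not report on it. Of 10 neural stem cell markers, all were read in every library. Their summed level was 10349 to 13166 CPM in knockout libraries and 8650 to 10015 in WT libraries. CPM are counts scaled to the library total, here outside Rn45s. In WT replicate 2, Nes, Pax6, Hes1 (18.7 CPM), Fabp7 (86.1 CPM), Vim and Nr2e1 were at their lowest, and Sox2, Slc1a3 and Sox9 at their highest. There the oligodendrocyte precursor list summed to 1252 CPM and the neuron list to 540. In the other libraries these sums were 2202 to 2817 and 624 to 918 CPM. To the sums in WT replicate 2, Map2 gave 493 CPM, Olig1 616 CPM and Olig2 341 CPM. These genes and Dcx, Neurod1 and Snap25 were at their lowest there. Tubb3 (16.8 CPM), Rbfox3 (15.0 CPM) and Sox10 (197 CPM) were at their highest there. A list of 14 hepatocyte genes summed to 94.6 to 137 CPM outside Rn45s in knockout libraries and to 553, 838 and 175 in WT replicates 1, 2 and 3, with 13 of 13 tested genes lower in the knockout and Afp at 0 in every library but WT replicate 2. Of the erythroid (7), microglial (6) and mesenchymal (5) lists no gene was tested, and 1 of 5 endothelial genes was; their sums were at most 4.51 CPM in knockout libraries and at most 10.9 in WT libraries, except 39.3 for the microglial list in WT replicate 2. The part that these differences between WT libraries have in the results below was not tested. Fewer cells of a type and less RNA per cell cannot be told apart in such bulk samples.

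Rb1 had the highest fold change of the members, with about 2 times the WT level in the knockout, and did not pass the threshold over all genes by edgeR. It encodes the retinoblastoma protein itself (ENSMUSG00000022105.6, chromosome 14, 73183673 to 73325822, minus strand, GRCm38). Rb1 had 417, 429 and 489 reads in Pml knockout replicates 1, 2 and 3, and 109, 45 and 142 in WT replicates 1, 2 and 3. In CPM scaled by library factors, as all CPM from here on, these are 62.7, 70.7 and 72.9 in the knockout libraries and 32.4, 36.0 and 32.2 in the WT libraries. The lowest knockout library stood above the highest WT library, and the 3 WT libraries were close to each other. The mean was 68.8 ± 5.37 CPM in knockout cells and 33.5 ± 2.10 CPM in WT cells (SD, n = 3 each), a ratio of 2.05. The log2 fold change of 1.04 (SE 0.257, 95% interval 0.47 to 1.61) had an unadjusted p of 0.00223 and an adjusted p of 0.197 by edgeR's quasi-likelihood test. That p was the 128th smallest of the 11317.

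The call on Rb1 depended on the test, and its fold change did not. DESeq2 gave an adjusted p of 0.0140 with a log2 fold change of 1.05, where 0.793% of genes were called higher. In the authors' deposited table the log2 fold change of Rb1 was 1.07 with an adjusted p of 0.0437, where 1.13% of the 12349 genes with a p-value were called higher. By edgeR without WT replicate 3 the adjusted p was 0.0363, in a fit that called 589 genes higher and 937 lower. Over all 15 alternatives tried, the log2 fold change of Rb1 stayed between 1.00 and 1.12 while its adjusted p ran from 0.0140 to 0.714. Without both WT replicates that had the high Rn45s and hepatocyte shares, the log2 fold change was 1.09 and the adjusted p 0.0565; in that fit the 1 remaining WT library is assumed to vary like the knockout libraries, here and wherever both are left out. The annotated 3′ end of Rb1 lies inside Rcbtb2 on the opposite strand, and the strand setting of the authors' counting is not given, so reads there cannot be assigned to a strand. Gm17233, not analysed here, also covers that end on the strand of Rb1 over 3649 bases, and a strand setting would not separate these genes. Rcbtb2 had 156, 186 and 191 reads in the knockout libraries and 114, 12 and 115 in the WT libraries, with a log2 fold change of 0.20 (SE 0.408, edgeR adjusted p 0.826).

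**Figure D1:**
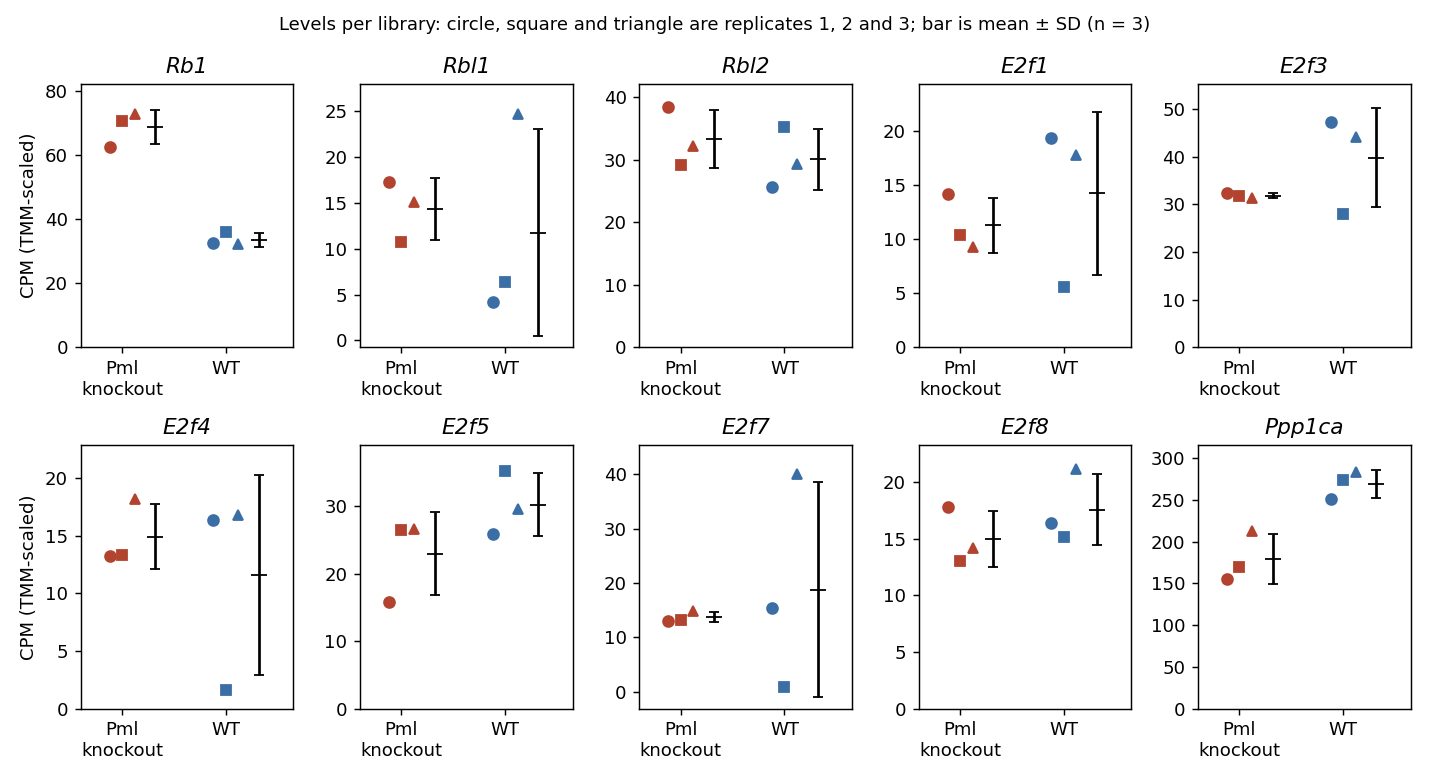
Library-scaled CPM (vertical axis, from 0 or just below it) of the 10 members in each Pml knockout library (red) and each WT library (blue), with the mean ± SD over 3 libraries as a black bar. Rb1 lies at 62.7 to 72.9 CPM in knockout and 32.2 to 36.0 CPM in WT libraries, and Ppp1ca at 155 to 213 CPM in knockout and 251 to 283 CPM in WT libraries, without overlap, while the other 8 overlap.

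The other pocket protein genes did not separate the genotypes. Rbl1 (chromosome 2, 157145893 to 157204534, minus strand) encodes p107, a pocket protein typical of dividing cells, and had 115, 65 and 101 reads in knockout libraries and 14, 8 and 109 in WT libraries. These are 17.3, 10.7 and 15.1 CPM in the knockout and 4.17, 6.39 and 24.7 CPM in WT replicates 1, 2 and 3. WT replicate 3 lay above every knockout library and the other WT libraries lay below them. The exact Poisson 95% intervals of WT replicate 1 (2.28 to 6.99 CPM) and WT replicate 3 (20.3 to 29.8 CPM) did not meet, so these WT libraries differed beyond counting error. The log2 fold change of Rbl1 was 0.22 (SE 0.591, edgeR adjusted p 0.871), but 1.53 without WT replicate 3 (adjusted p 0.0596) and -0.79 without WT replicates 1 and 2 (adjusted p 0.238). Its adjusted p over all alternatives ran from 0.0596 to 0.981.

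Rbl2 (chromosome 8, 91070057 to 91123844, plus strand) encodes p130, the pocket protein of resting cells, and had 255, 177 and 216 reads in knockout libraries and 86, 44 and 129 in WT libraries. Scaled, these were 38.4, 29.2 and 32.2 CPM in the knockout and 25.6, 35.2 and 29.3 CPM in WT cells, so the groups overlapped. Its log2 fold change was 0.16 (SE 0.289, 95% interval -0.48 to 0.80, edgeR adjusted p 0.803). The annotated end of Rbl2 lies inside Aktip on the opposite strand.

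Ppp1ca, which encodes the alpha catalytic subunit of PP1, was the only other member whose genotypes did not overlap, and it was lower in the knockout (ENSMUSG00000040385.7, chromosome 19, 4192065 to 4195420, plus strand, GRCm38). Reads numbered 1028, 1027 and 1428 in the knockout libraries and 843, 342 and 1245 in the WT libraries, which are 155, 169 and 213 CPM against 251, 273 and 283 CPM. Every knockout library stood below every WT library. The mean was 179 ± 30.3 CPM in knockout cells and 269 ± 16.3 CPM in WT cells (SD, n = 3 each), a ratio of 0.666. The log2 fold change of -0.59 (SE 0.247, 95% interval -1.14 to -0.04) had an unadjusted p of 0.0385 and did not pass over all genes (edgeR adjusted p 0.292). It stayed between -0.72 and -0.48 over 15 alternatives, with adjusted p from 0.169 to 0.723 and 0 passes, and the authors' deposited table gave -0.56 with an adjusted p of 0.352. The end of Ppp1ca overlaps Rad9a on the opposite strand by 225 bases; Rad9a had 16, 14 and 35 reads in knockout and 20, 1 and 17 in WT libraries.

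The ratio of Rb1 to Ppp1ca reads within a library needs no library scaling. It was 0.406, 0.418 and 0.342 in the knockout libraries and 0.129, 0.132 and 0.114 in the WT libraries. The mean ratio was 0.389 ± 0.0404 in knockout cells and 0.125 ± 0.00953 in WT cells (SD, n = 3 each), 3.11-fold higher in the knockout. On this ratio WT replicates 1 and 2 lay beside WT replicate 3. This pair was singled out because its members did not overlap between genotypes and lay in opposite directions, which fixes the separation of their ratio, so no test is given.

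Rb1 reads were also set against those of the other members. In 5 of 9 ratios (to Rbl2, E2f3, E2f5, E2f8 and Ppp1ca) every knockout library was above every WT library, and so it was in the ratios of Rb1 to 54.3% of the other genes tested. The count for the members is near that share, and all 9 ratios share Rb1. The ratio of Rb1 to Rbl2 was 1.64, 2.42 and 2.26 in knockout libraries and 1.27, 1.02 and 1.101 in WT libraries. To E2f7 the ratio was 4.79, 5.36 and 4.94 in knockout libraries but 2.10, 45.0 and 0.807 in WT libraries, where WT replicate 2 had a single E2f7 read.

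**Figure D2:**
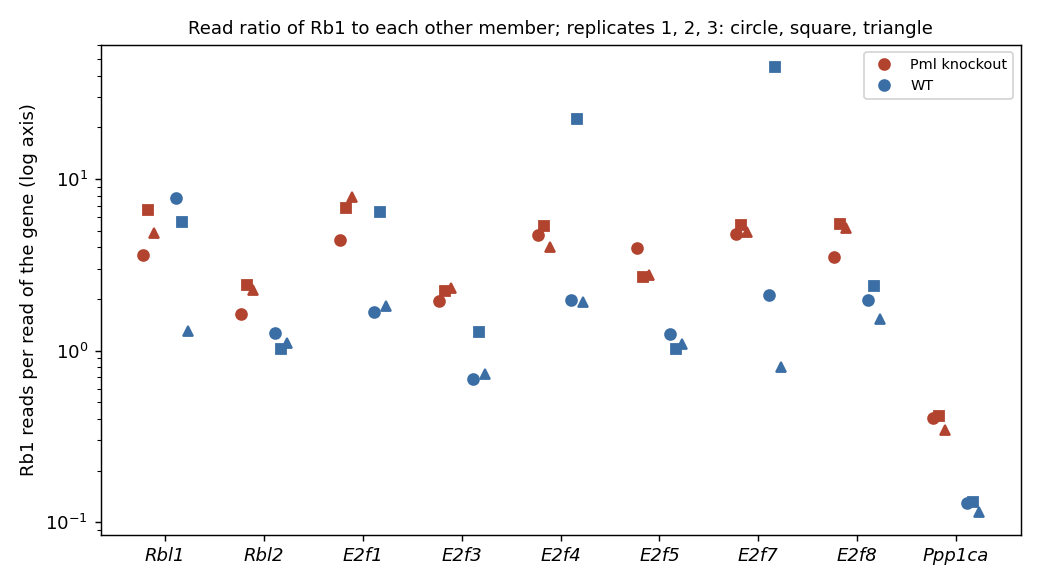
Rb1 reads divided by the reads of each other member (log axis) in each Pml knockout library (red, left) and WT library (blue, right). For Ppp1ca the knockout libraries lie at 0.342 to 0.418 and the WT libraries at 0.114 to 0.132, while for E2f4 and E2f7 WT replicate 2 stands far above the rest.

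Among the activator E2F genes, both members were lower on average in the knockout without passing. E2f1 (chromosome 2, 154559407 to 154569892, minus strand) had 94, 63 and 62 reads in knockout libraries and 65, 7 and 78 in WT libraries. Scaled, these were 14.1, 10.4 and 9.25 CPM in the knockout and 19.3, 5.60 and 17.7 CPM in WT cells. WT replicate 2 lay below the knockout libraries and the other WT libraries above them. For E2f1 the log2 fold change was -0.39 (SE 0.455, edgeR adjusted p 0.686). E2f3 (chromosome 13, 29906575 to 29986063, minus strand) had 215, 192 and 210 reads in knockout libraries and 159, 35 and 194 in WT libraries. These are 32.3, 31.7 and 31.3 CPM in the knockout, the narrowest range of any member there, and 47.3, 28.0 and 44.0 CPM in WT cells. WT replicate 2 again lay below the knockout libraries, and the log2 fold change of E2f3 was -0.34 (SE 0.295, edgeR adjusted p 0.586). E2f2, the remaining activator and not a member, had 30.5, 20.1 and 22.5 CPM in knockout libraries and 32.4, 36.0 and 53.6 CPM in WT libraries, with a log2 fold change of -0.74 (SE 0.322, edgeR adjusted p 0.301).

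Neither repressor that acts with pocket proteins passed. E2f4 (chromosome 8, 105297663 to 105305370, plus strand), the main E2F of resting cells, had 88, 81 and 122 reads in knockout libraries and 55, 2 and 74 in WT libraries. In CPM these were 13.2, 13.4 and 18.2 in the knockout and 16.4, 1.599 and 16.8 in WT replicates 1, 2 and 3. WT replicate 2 stood apart: the upper end of its Poisson 95% interval, 5.78 CPM, was below the other 5 libraries. The log2 fold change of E2f4 was 0.27 (SE 0.565, edgeR adjusted p 0.833) and turned to -0.14 without WT replicate 2 (0.855); over the alternatives its adjusted p lay between 0.555 and 0.966. E2f5 (chromosome 3, 14578641 to 14606309, plus strand) had 105, 160 and 178 reads in knockout libraries and 87, 44 and 130 in WT libraries. Its levels were 15.8, 26.4 and 26.6 CPM in the knockout and 25.9, 35.2 and 29.5 CPM in WT cells, so 2 knockout libraries overlapped WT. For E2f5 the log2 fold change was -0.39 (SE 0.324, edgeR adjusted p 0.569), negative in all 15 alternatives (-0.50 to -0.17). Its annotated end overlaps 1810022K09Rik on the opposite strand by 26 bases.

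Of the atypical repressors, E2f7 varied more among WT libraries than any other member. E2f7 (chromosome 10, 110745439 to 110787384, plus strand) had 87, 80 and 99 reads in knockout libraries and 52, 1 and 176 in WT libraries, or 13.1, 13.2 and 14.8 CPM in the knockout and 15.5, 0.799 and 39.9 CPM in WT cells. The WT libraries covered a 49.98-fold range, the knockout libraries a 1.13-fold range. Poisson 95% intervals of WT replicates 1, 2 and 3 (11.6 to 20.3, 0.0202 to 4.45 and 34.3 to 46.3 CPM) did not meet. Over all libraries the log2 fold change of E2f7 was -0.54 (SE 0.713, edgeR adjusted p 0.729). It was 0.56 without WT replicate 3 (adjusted p 0.589), and -1.55 without WT replicates 1 and 2 (adjusted p 0.0135). Its adjusted p ran up to 0.999 over the alternatives. E2f8 (chromosome 7, 48866429 to 48881596, minus strand) had 118, 79 and 95 reads in knockout libraries and 55, 19 and 93 in WT libraries, or 17.8, 13.03 and 14.2 CPM in the knockout and 16.4, 15.2 and 21.1 CPM in WT cells, which overlap (log2 fold change -0.24, SE 0.331, edgeR adjusted p 0.737).

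**Figure D3:**
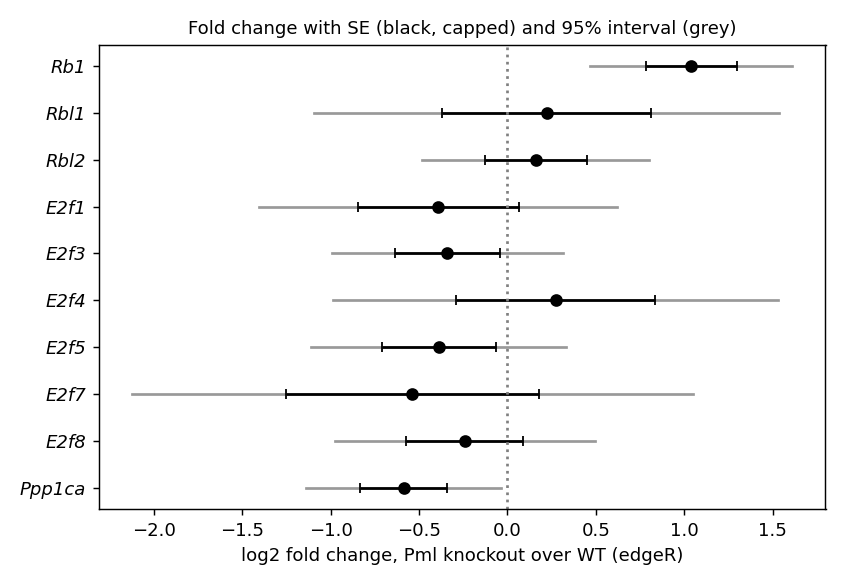
Log2 fold change (horizontal axis, Pml knockout over WT) of each member by edgeR, with its SE as capped black bars and its unadjusted 95% interval in grey. The intervals of Rb1 (0.47 to 1.61) and Ppp1ca (-1.14 to -0.04) leave out 0, and those of the other 8 members include it.

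Across the members, 4 were higher and 6 lower in the knockout by fitted fold change, with a median log2 fold change of -0.29 against -0.01 over all genes tested. Without WT replicate 3 the median was 0.05, with 5 higher and 5 lower, and with the replicate block it was -0.11, also with 5 and 5. By edgeR 0 members passed at an adjusted p under 0.05, where 0.00884% of all genes passed, and DESeq2 passed 1. At an unadjusted p under 0.05 there was 1 member higher (Rb1), where 6.70% of all genes were, and 1 lower (Ppp1ca), where 9.19% were. Groups did not overlap for 1 member higher and 1 lower, while 12.3% of all genes were higher and 11.3% lower without overlap. With 10 members, a single one in each direction is near these background shares. The coefficient of variation was smaller among knockout than among WT libraries in 7 of 10 members, and in 83.2% of all genes the WT value was the larger.

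Among genes that act on or with the members, none passed over all genes by edgeR in the fit of all 6 libraries, and some passed in others. Of 28 E2F target genes of DNA replication, 27 were lower and 1 (Mcm4) higher in the knockout, with a median log2 fold change of -0.48. Over all 11317 genes tested, 5695 were lower. At an unadjusted p under 0.05, 7 of the 28 were lower and 0 higher, where 9.19% of all genes were lower and 6.70% higher. Chaf1b, a histone chaperone subunit at replication forks, had 7.52, 5.11 and 7.01 CPM in knockout libraries and 23.2, 26.4 and 27.5 CPM in WT libraries (log2 fold change -1.97, SE 0.342, edgeR adjusted p 0.197). Mcm7, a subunit of the replicative helicase, had 159, 105 and 139 CPM in knockout libraries and 315, 268 and 257 CPM in WT libraries (log2 fold change -1.06, SE 0.262, edgeR adjusted p 0.197). Neither gene overlapped between genotypes. Of the 28, 7 were lower without overlap and 0 higher, where 11.3% of all genes were lower and 12.3% higher. Rpa2, of the single-strand binding complex, and Mcm5 had log2 fold changes of -0.96 (SE 0.266, edgeR adjusted p 0.212) and -1.17 (SE 0.341, edgeR adjusted p 0.220). DESeq2 passed 3 of the 28, Chaf1b (adjusted p 0.000390), Mcm7 (0.0113) and Rpa2 (0.0380), where it called 221 of 11723 genes lower. The same 3 passed by edgeR without WT replicate 3 (adjusted p 0.0177, 0.0274 and 0.0297). That fit called 937 of 11756 genes lower. Without WT replicates 1 and 2 together, the median log2 fold change of the 28 was -0.97.

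The E2F target list was not separated by genotype in every library. Its mean log2 level, each gene centred on its own average, was 0.02, -0.48 and -0.05 in knockout replicates 1, 2 and 3 and 0.38, -0.74 and 0.87 in WT replicates 1, 2 and 3. WT replicate 2 was therefore the lowest of all libraries and WT replicate 3 the highest. Without WT replicate 3, 16 of 28 were lower, with a median of -0.07, and without WT replicates 1 and 2 all 28 were lower, with a median of -0.97. The 18 mitotic genes split into 10 higher and 8 lower (median 0.05), and their mean levels in the WT libraries ran in the same order, 0.09, -0.89 and 0.63. Without WT replicate 2, 17 of the 18 were lower (median -0.30), and without WT replicate 3, 6 were (median 0.42). Cdc20, an activator of the anaphase complex, had 124, 82.8 and 118 CPM in knockout libraries and 217, 129 and 167 CPM in WT libraries (log2 fold change -0.66, SE 0.287, edgeR adjusted p 0.301). Aurkb, the Aurora B kinase, had 11.7, 11.9 and 20.9 CPM in knockout libraries and 8.04, 1.599 and 9.99 CPM in WT libraries, without overlap (log2 fold change 1.06, SE 0.532, edgeR adjusted p 0.356).

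**Figure D4:**
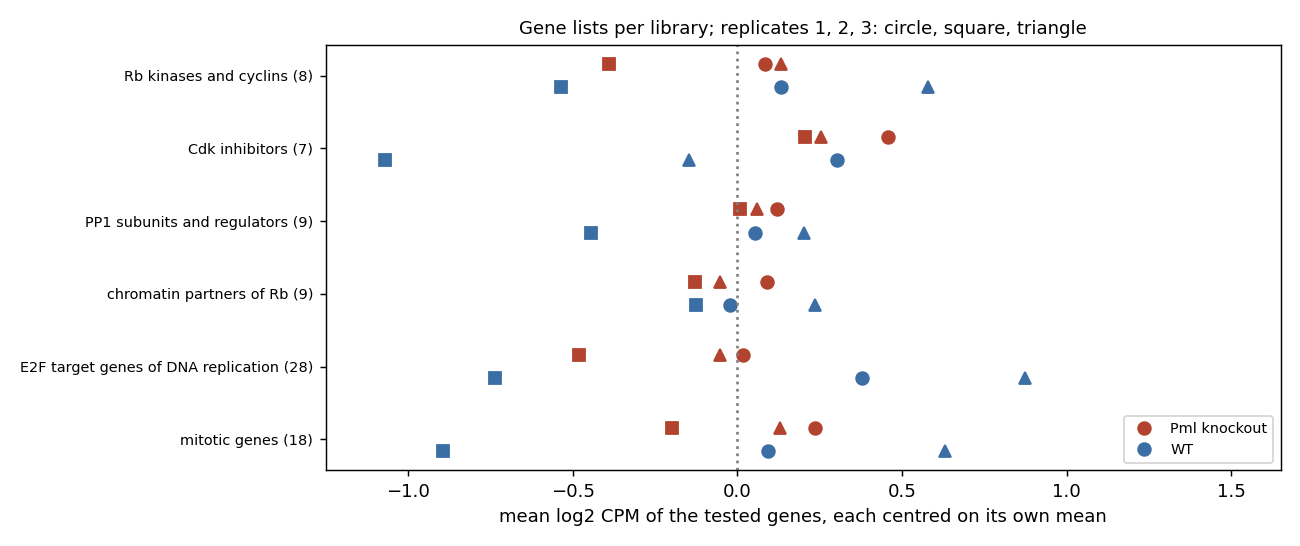
Mean centred log2 CPM (horizontal axis) of 6 gene lists in each Pml knockout library (red) and WT library (blue), with the number of tested genes in brackets. For the 28 E2F target genes the WT libraries run from -0.74 to 0.87 and the knockout libraries from -0.48 to 0.02, inside the WT range.

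Kinases that phosphorylate the pocket proteins and their inhibitors were mixed. Of 8 tested cyclin and kinase genes, 5 were lower and 3 higher (median -0.30). At an unadjusted p under 0.05, 1 was lower, where 9.19% of all genes were. The balance turned on single libraries, with 5 higher and 3 lower (median 0.09) without WT replicate 3 and 1 higher and 7 lower (median -0.39) without WT replicate 2. Ccnd3, cyclin D3, had 76.6, 90.4 and 76.2 CPM in knockout libraries and 130, 226 and 107 CPM in WT libraries (log2 fold change -0.92, SE 0.315, edgeR adjusted p 0.239). The log2 fold change of Ccnd3 was -1.11 without WT replicate 3 and -0.54 without WT replicate 2. It passed by edgeR without WT replicate 3 (adjusted p 0.0327), in a fit that called 937 of 11756 genes lower. Its partner Cdk4 had 142, 144 and 149 CPM in knockout libraries and 215, 212 and 183 CPM in WT libraries (log2 fold change -0.49, SE 0.233, edgeR adjusted p 0.340). Of 7 Cdk inhibitor genes, 5 were higher and 2 lower (median 0.40). At an unadjusted p under 0.05, 1 inhibitor gene was higher, where 6.70% of all genes were. Without WT replicate 2 the inhibitors split into 4 higher and 3 lower (median 0.09), and without WT replicate 3 into 5 and 2 (median 0.45). Cdkn1b, which encodes p27, had 295, 208 and 216 CPM in knockout libraries and 151, 161 and 139 CPM in WT libraries (log2 fold change 0.67, SE 0.254, edgeR adjusted p 0.252). Cdkn2b, p15, had 27.2, 24.4 and 30.1 CPM in knockout libraries and 18.5, 0 and 14.7 CPM in WT libraries (log2 fold change 1.18, SE 0.670, edgeR adjusted p 0.406). The log2 fold change of Cdkn2b was 0.73 without WT replicate 2. None of these 4 genes overlapped between genotypes, but they were named for their small p. Over the whole lists, 2 of 8 cyclin and kinase genes were lower without overlap and 2 of 7 inhibitor genes higher. Of all genes tested, 11.3% were lower and 12.3% higher without overlap.

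The other PP1 genes were mixed, with 4 of 9 higher and 5 lower (median -0.46). At an unadjusted p under 0.05, 1 was higher and 1 lower, where 6.70% of all genes were higher and 9.19% lower. Of the 9, 1 was higher and 4 were lower without overlap, where 12.3% of all genes were higher and 11.3% lower. Ppp1cb, the beta catalytic subunit, had 105, 143 and 154 CPM in knockout libraries and 53.9, 13.6 and 114 CPM in WT libraries (log2 fold change 1.11, SE 0.551, edgeR adjusted p 0.353). Without WT replicate 3 the log2 fold change of Ppp1cb was 1.92 and passed (adjusted p 0.0290), while it was 0.67 without WT replicate 2 and 0.22 without WT replicates 1 and 2 together. Ppp1cc, the gamma catalytic subunit, named after its values were seen, had 2.41, 3.13 and 2.09 CPM in knockout libraries and 8.04, 4.00 and 4.31 CPM in WT libraries (log2 fold change -1.12, SE 0.550, edgeR adjusted p 0.346). Ppp1cc rested on few reads, 16, 19 and 14 in knockout libraries and 27, 5 and 19 in WT libraries. Ppp1cb overlapped between genotypes, and neither subunit passed in the fit of all 6 libraries. Of the PP1 inhibitors, Ppp1r2 was at 19.7, 18.5 and 32.2 CPM in knockout libraries and 9.82, 6.39 and 18.2 CPM in WT libraries (edgeR adjusted p 0.309). Ppp1r11 was at 31.3, 34.1 and 27.0 CPM in knockout libraries and 62.2, 89.5 and 34.5 CPM in WT libraries (edgeR adjusted p 0.242). Both passed by edgeR without WT replicate 3, Ppp1r2 with a log2 fold change of 1.48 (adjusted p 0.0456) and Ppp1r11 with -1.27 (0.0223). That fit, in which Ppp1cb also passed, called 589 genes higher and 937 lower of 11756 tested.

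Chromatin partners of Rb and the MuvB genes showed no common direction. Of 9 chromatin partners, 4 were higher and 5 lower (median -0.09). Smarca4, the Brg1 remodelling ATPase, had 299, 267 and 267 CPM in knockout libraries and 415, 590 and 406 CPM in WT libraries (log2 fold change -0.76, SE 0.263, edgeR adjusted p 0.239). Suv39h1, a histone H3 lysine methyltransferase, had 25.9, 22.1 and 21.9 CPM in knockout libraries and 37.5, 54.4 and 33.1 CPM in WT libraries (log2 fold change -0.82, SE 0.304, edgeR adjusted p 0.246). Kdm5a, a histone demethylase first found as an Rb partner, had 154, 128 and 114 CPM in knockout libraries and 85.4, 106 and 93.5 CPM in WT libraries (log2 fold change 0.48, SE 0.25, edgeR adjusted p 0.375). Of 6 tested MuvB and B-Myb genes, 2 were higher and 4 lower (median -0.31), and of 4 further E2F and DP genes 2 were higher and 2 lower (median 0.17). Tfdp1 encodes the main DP partner of the E2Fs other than the atypical E2f7 and E2f8. It had 41.1, 42.9 and 49.8 CPM in knockout libraries and 28.3, 10.4 and 56.3 CPM in WT libraries (log2 fold change 0.45, SE 0.470, edgeR adjusted p 0.655).

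Rb1, Rbl2, E2f1, E2f3, E2f5, E2f8 and Ppp1ca kept their direction in all 15 alternatives, though not always their size. The log2 fold change of E2f8 ran from -0.50 to -0.07, that of E2f1 from -0.70 to -0.13 and that of Rbl2 from 0.06 to 0.29. The sign of Rbl1 turned in 3, that of E2f4 in 2 and that of E2f7 in 2. Those 3 genes also had the widest ratios of highest to lowest library among WT libraries, 5.94, 10.5 and 49.98.

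**Figure D5:**
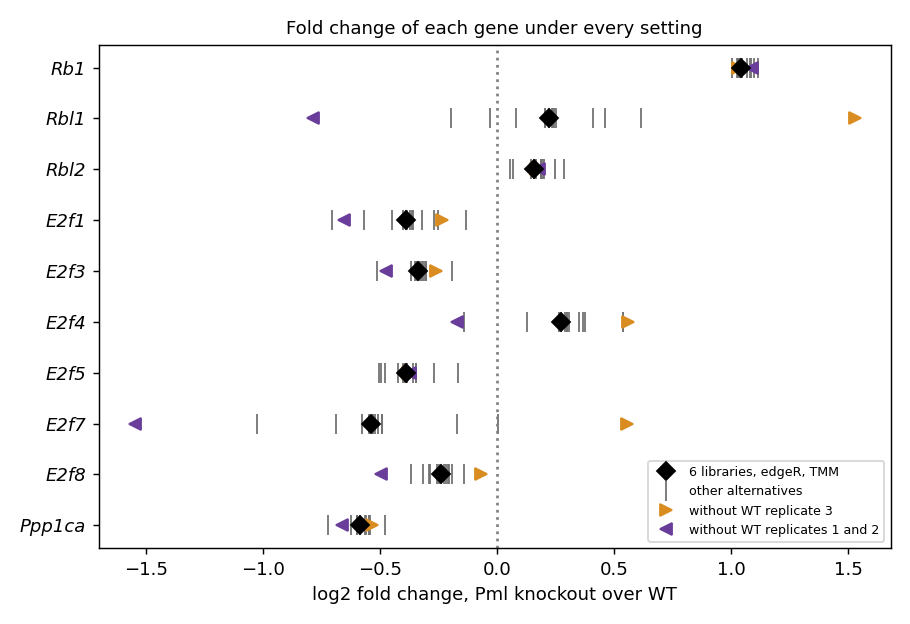
Log2 fold change (horizontal axis, Pml knockout over WT) of each member in the fit of all 6 libraries (diamond) and under 15 alternatives, 2 of which have their own symbol. Rb1 stays within 1.00 to 1.12, while E2f7 runs from -1.55 to 0.56 and Rbl1 from -0.79 to 1.53.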

How the data were processed

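RNA of integrity number over 7 was made into 3′ tag libraries (QuantSeq forward, 20 to 24 PCR cycles) and sequenced on a NextSeq, per the labels' protocols. FastQC, HISAT2, HTSeq, edgeR and the mm10 build are named in the submitters' processing notes; their versions, the annotation and the strand setting are unstated there. The deposited values used are raw read counts per gene symbol, with the authors' own log2 fold change, p-value and adjusted p-value, per the file headers. The 6 columns of library-normalized values were not used.

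Tests were run with edgeR 4.0.16 under R 4.3.3 (default filter: minimum count 10, total 15; trimmed mean of M values; robust quasi-likelihood F test; Benjamini-Hochberg over all 11317 genes, threshold 0.05), limma 3.58.1 and DESeq2 1.42.0. The SE is the log2 fold change divided by the square root of F. Log2 levels used a prior count of 2. Intervals are at 95% and, for counts, cover counting error only. The fit was checked on simulated counts. Positions are from GENCODE M21 (GRCm38, the assembly of mm10).

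The members and lists were chosen with earlier results of these data known. All members are named. From each list, up to 4 tested genes with the smallest p and at least 5 CPM on average were eligible, and fewer are printed. Ppp1cc, below that level, was named after its values were seen. The labels do not say whether the replicate numbers shared by the genotypes pair the samples, and they were not taken as pairs. Alternatives were other normalizations, filters and tests, the replicate block and libraries left out; the counts of lists under each were added after seeing the data.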

Additional observations from a re-analysis of the deposited data

How the results depend on the processing

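The number of genes passing by edgeR, 1 higher and 0 lower in the knockout with 1798 at an unadjusted p under 0.05, and of members passing, 0, depended on the setting. Genes higher numbered 0 with DESeq2's size factors, by limma voom and without the Rn45s row, 93 by DESeq2 and 91 without WT replicates 1 and 2 together. Genes lower numbered 2 with no count filter, 221 by DESeq2 and 51 without WT replicates 1 and 2 together. Members passing numbered 1 by DESeq2 (Rb1) and 1 without WT replicates 1 and 2 together (E2f7). With each library left out in turn, genes higher ran from 0 to 589, genes lower from 0 to 937 and members passing from 0 to 1, the highest of each without WT replicate 3. The number of E2F target genes lower, 27, ran from 16 to 27 in the same fits. With the replicate number as a block (replicate block), 1 gene was higher, 1 lower and 0 members passed, and Rb1 had an adjusted p of 0.225. Deviations of same-numbered libraries correlated at -0.0025, 0.07 and 0.19 across genes, and those of differently numbered libraries at -0.18 to 0.087. These values cannot exclude a pairing, and the numbers were not taken as pairs.

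Signs turned for 3 members. The log2 fold change of Rbl1 became -0.20 when WT replicate 1 was left out, -0.03 when WT replicate 2 was and -0.79 when both were, and its range with single libraries left out was -0.20 to 1.53. That of E2f4 became -0.14 on leaving out WT replicate 2 and -0.17 on leaving out both (single libraries: -0.14 to 0.56). That of E2f7 became 0.0022 with the block and 0.56 when WT replicate 3 was left out (single libraries: -1.02 to 0.56). Rcbtb2 turned to -0.11 without WT replicate 2, and Tfdp1 (-0.34) and Mcm4 (-0.076) without WT replicates 1 and 2. WT replicate 2 had the fewest counts outside Rn45s, 1068340, with 1 read of E2f7 and 2 of E2f4. The upper ends of their Poisson 95% intervals there, 4.45 and 5.78 CPM, lay below the level of every other library. The cause of the turned signs was not tested.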

Other observations

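Genes whose library profile was most like that of Rb1 or E2f7 were taken from 8234 genes of at least 10 CPM on average, by the root mean square difference of centred log2 CPM over the 6 libraries. Nearest to Rb1 were Ddit4 (0.116), Ctsl (0.125) and Col4a3bp (0.127), against a median of 0.667 over all genes compared. Ddit4, an mTOR inhibitor induced by stress, had a log2 fold change of 0.85 in the knockout over WT, and Ctsl, the lysosomal protease cathepsin L, had 1.03. E2f7 had no gene within 0.25; the nearest were Gmnn (0.291), which encodes the licensing inhibitor geminin, Paxip1 (0.336) and the mitotic kinase gene Cdk1 (0.348), against a median of 1.56. These are likenesses over 6 libraries of 2 genotypes and describe no shared control.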
